A study of Mus musculus with 85 samples.

Results

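The complement genes described here are 10 components and receptors of the complement system, measured by RNA sequencing of the mouse hippocampus: C1qa, C1qb, C1qc, C4b, C3, Serping1, Itgam, Itgb2, C3ar1 and C5ar1. Every row of the deposited table whose gene symbol field holds 1 of these symbols was taken, and rows of the same gene were summed. This gave 13 rows for 10 genes, out of 56090 rows that sum to 47064 loci above 0. The study measured total RNA of the hippocampus in 85 mice aged 8 months, with 1 library per mouse, and its title concerns a low-methionine diet and cognition in a mouse model of Alzheimer's disease. The AD mice were of a transgenic strain that deposits amyloid plaques, with transgenes driven by the promoter of the prion protein gene, and the control mice were C57BL/6J. Male groups on standard feed were MWT (control, 11 mice) and MAD (AD, 11 mice), and on methionine-restricted feed MWTMR (control, 10) and MADMR (AD, 11). Female groups were FWT (control, 10) and FAD (AD, 11) on standard feed, and FWTMR (control, 10) and FADMR (AD, 11) on restricted feed. The labels give no litter, cage or preparation batch.

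The complement system is a cascade of proteins that tags surfaces for removal. The classical pathway starts when C1q, a complex of the products of C1qa, C1qb and C1qc, binds its target; C4 and then C3 are cleaved in turn, and fragments of C3 stay on the target. Phagocytes take up C3-tagged material through complement receptor 3, whose chains are encoded by Itgam (CD11b) and Itgb2 (CD18), and sense the released fragments through the receptors C3ar1 and C5ar1. Serping1 encodes C1 inhibitor, which blocks the proteases that C1q activates. In the brain, C1q and complement receptor 3 come mainly from microglia, and the pathway is known for the removal of synapses in development and around amyloid plaques.

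The genes of the 3 C1q chains lie side by side on the minus strand of mouse chromosome 4 (GRCm38), within 18675 bases: C1qb at chr4:136880129-136886187, C1qc at chr4:136889804-136893065 and C1qa at chr4:136895917-136898803. Promoters are shown for C1qb, C1qc and Itgam because they hold the motif that was searched. The sequences are RefSeq's, build GRCm38.p6, up to 250 bases before the start, 5′ to 3′ on the gene's strand. Capitals mark GAGGAA or its reverse complement TTCCTC, the core letters of the box bound by PU.1, the transcription factor of macrophages and microglia.
C1qb, chr4:136886201-136886450, minus strand: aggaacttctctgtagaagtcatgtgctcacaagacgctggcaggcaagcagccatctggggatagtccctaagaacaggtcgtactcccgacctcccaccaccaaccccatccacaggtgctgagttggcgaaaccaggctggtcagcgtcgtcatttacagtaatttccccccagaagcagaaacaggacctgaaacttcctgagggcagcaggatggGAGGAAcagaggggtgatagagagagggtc
C1qc, chr4:136893066-136893164, minus strand: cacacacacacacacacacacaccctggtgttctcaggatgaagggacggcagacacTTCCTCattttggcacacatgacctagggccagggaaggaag
Itgam, chr7:128062390-128062639, plus strand: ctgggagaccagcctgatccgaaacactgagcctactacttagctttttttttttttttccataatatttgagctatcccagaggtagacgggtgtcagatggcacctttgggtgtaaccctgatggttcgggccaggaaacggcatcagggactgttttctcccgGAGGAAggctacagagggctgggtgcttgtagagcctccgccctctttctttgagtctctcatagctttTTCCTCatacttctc
The stretch for C1qc is 99 bases because the annotation places the gene itself in the rest of the window. The motif stood 30 bases before RefSeq's start of C1qb and 84 and 15 before that of Itgam. For C1qc it lay 193 bases before RefSeq's start, a start that falls inside the gene as the annotation draws it. Of 6 members with a promoter in the table, 3 held it. The stretches without a match were 250 bases for C3, 246 for C3ar1 and only 48 for C5ar1. Among all 32851 promoters of the table, 23.3% held the motif on either strand in the same window of 250 bases, so a match here is a description of the letters only.

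Values are FPKM (fragments per kilobase of transcript, relative to the library total) as deposited, divided by a factor per library of 0.867 to 1.108, and called scaled FPKM. The files hold no counts, so the depth behind a value is unknown and no counting error can be given. Total FPKM ran from 939248 to 1066927. The Prnp locus, which the transgene promoter marks, was at 874.4 to 1518 scaled FPKM in the 44 AD mice and at 229.9 to 453.0 in the 41 control mice, so each library fits its genotype label. The members fell into 3 levels. C1qa, C1qb and C4b averaged 25.8, 21.5 and 22.8 scaled FPKM over all mice; Serping1, Itgb2, C1qc and Itgam averaged 12.6, 6.75, 6.03 and 5.27; and C3, C3ar1 and C5ar1 averaged 0.400, 0.251 and 0.173. The first 7 were at 1.48 scaled FPKM or more in every library and entered the test, while C3, C3ar1 and C5ar1 fell short of its minimum of 1 FPKM in at least 10 libraries.

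**Figure D1:**
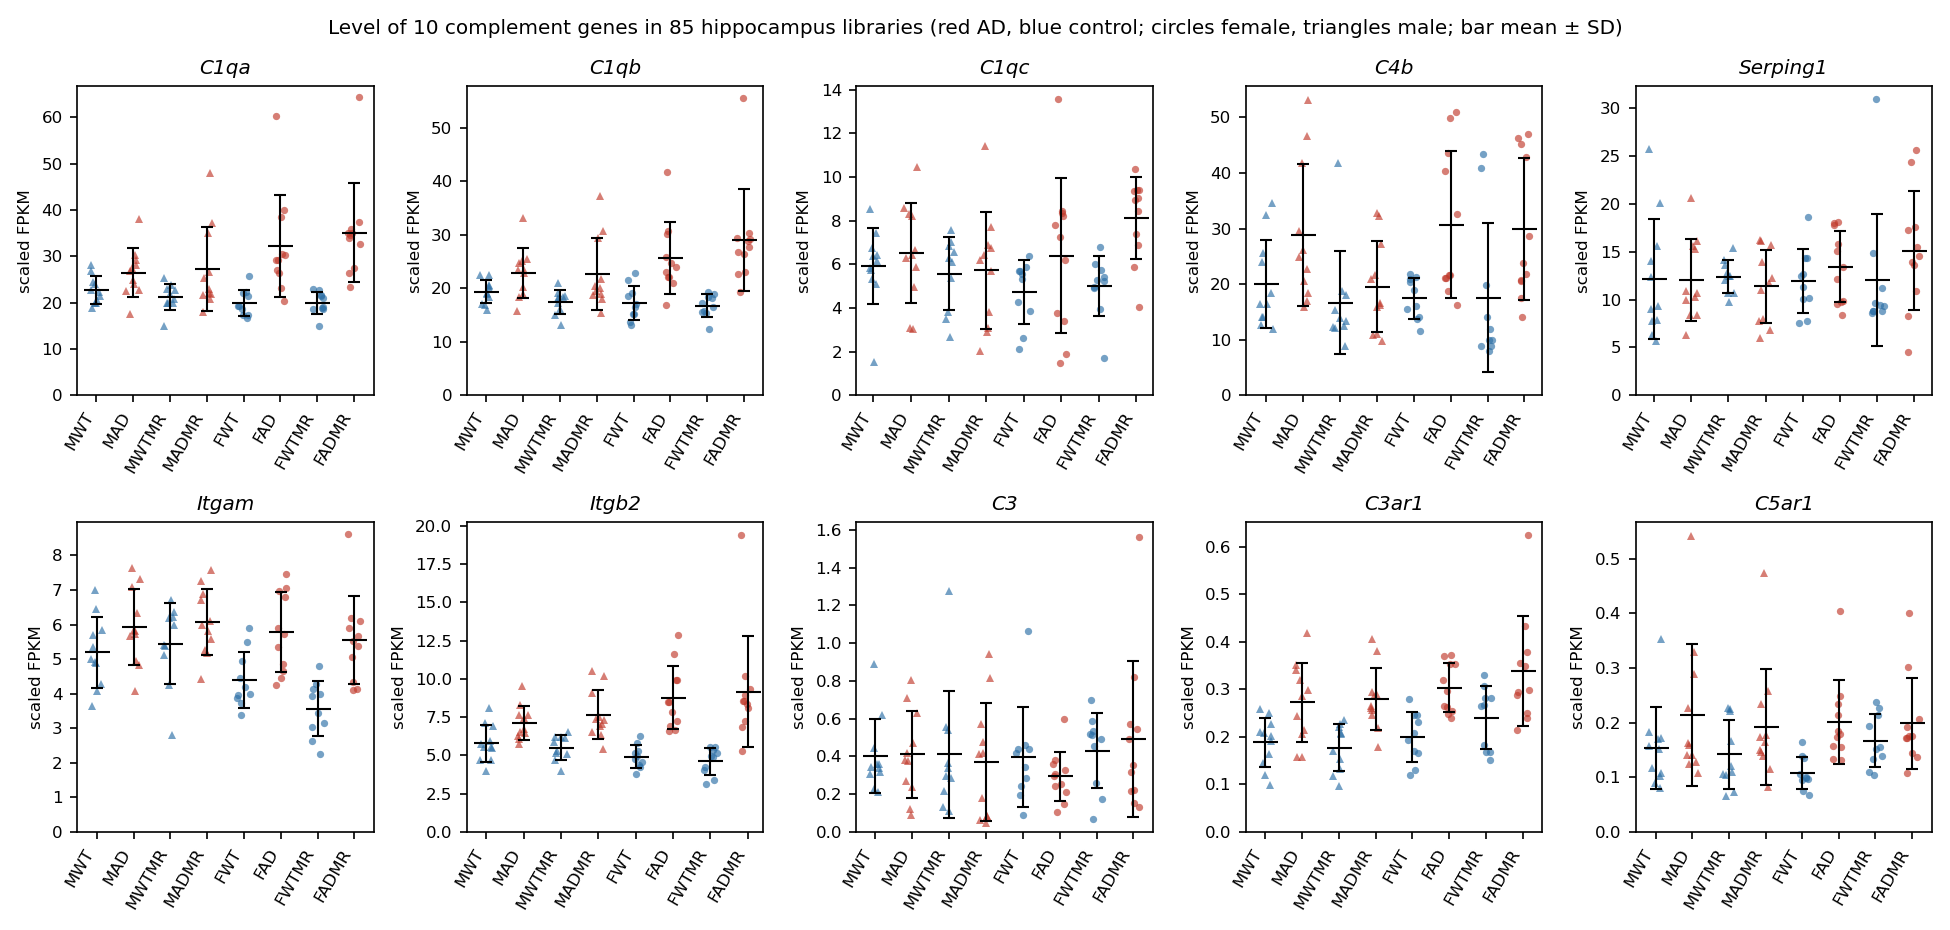
Scaled FPKM of the 10 complement genes (y axis, linear from 0) in each of the 8 groups (x axis), with 1 point per mouse, red for AD and blue for control, and black bars for the mean ± SD. C1qa, C1qb, C4b, Itgb2, C3ar1 and Serping1 had higher means in FAD and FADMR than in every other group. C1qc and C3 were highest in FADMR, and C3 was lowest in FAD. Itgam was highest in MADMR and C5ar1 in MAD. FADMR replicate 10 was the highest library for C1qa, C1qb, Itgam, Itgb2 and C3ar1.

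Averaged over sex and feed, 5 of the 7 tested members rose in AD mice and none fell. They were Itgb2, C1qa, C1qb, C4b and Itgam, at log2 differences of 0.29 to 0.57, by limma on log2(scaled FPKM + 1) with Benjamini-Hochberg adjustment over 21247 rows and a threshold of 0.05. In that comparison 1.72% of all rows passed, and 1.22% passed as higher. The median difference of the 7 members was 0.45, against -0.01 over all rows tested. C1qc and Serping1 did not pass. In bulk tissue, more cells of a type and more RNA per cell cannot be told apart.

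C1qa encodes the A chain of C1q. In control mice its level stayed between 14.97 and 28.2 scaled FPKM over 41 mice, with a median of 20.9. In AD mice it ran from 17.5 to 64.3 with a median of 27.8 over 44 mice, so the genotypes overlapped at the low end. Of the 22 AD females 15 were above every control mouse, and of the 22 AD males 6 were. The groups, as lowest, median and highest, were at 18.9, 22.3 and 28.2 in MWT, 17.5, 26.9 and 38.0 in MAD, 14.97, 21.3 and 25.3 in MWTMR, and 18.1, 22.9 and 48.0 in MADMR. Among females they were at 16.6, 19.3 and 25.7 in FWT, 20.4, 29.3 and 60.4 in FAD, 15.02, 19.9 and 23.0 in FWTMR, and 23.4, 34.7 and 64.3 in FADMR. FADMR and FWTMR did not overlap, and the other 3 pairs did. For this and later genes such separation is a description, given without its share over all rows. In the order of group means FADMR (35.1), FAD (32.3), MADMR (27.2) and MAD (26.5) stood above MWT (22.7), MWTMR (21.2), FWT (20.01) and FWTMR (19.98), and no neighbours in that order differed by more than their SD. The averaged difference was 0.47 ± 0.064 (SE; limma adjusted p = 1.35e-07).

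C1qb, which encodes the B chain, followed C1qa library by library. Its median was 18.2 in control mice (12.4 to 22.8) and 23.4 in AD mice (15.3 to 55.7), and the averaged difference was 0.45 ± 0.061 (adjusted p = 9.41e-08). The medians were 16.8 in FWT and 24.1 in FAD, 16.9 in FWTMR and 27.7 in FADMR, 19.1 in MWT and 23.4 in MAD, and 18.2 in MWTMR and 20.1 in MADMR. The lowest FADMR mouse, at 19.35, lay just above the highest FWTMR mouse, at 19.31. The ratio of C1qa to C1qb was 1.20 ± 0.076 (SD, n = 85) over all mice, and its group means ran only from 1.16 in MAD to 1.24 in FAD. Within groups, log2 C1qa and C1qb correlated at r = 0.957 and rho = 0.929 over 85 libraries (permutation p = 1e-05 for each, the smallest that 100000 permutations within groups can give; adjusted p = 5.94e-05 for r over 101 correlations). Without the 2 libraries farthest from the median, r was 0.948.

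C1qc, the C chain, did not keep this proportion. Its ratio to C1qb fell into 2 sets with a gap between them: 17 libraries were at 0.0672 to 0.193 and 68 at 0.249 to 0.409. Libraries of the lower set occurred in every group, with 1 in MWT, 2 in MAD, 2 in MWTMR, 3 in MADMR, 2 in FWT, 4 in FAD, 1 in FWTMR and 2 in FADMR. FADMR replicate 10, the mouse with the most C1qa and C1qb, belonged to it. How reads were assigned to the assembled C1qc locus is unknown, and what set the lower set apart was not tested. The C1qc level ran from 1.53 to 8.54 scaled FPKM with a median of 5.70 in control mice, and from 1.48 to 13.6 with a median of 6.80 in AD mice. Its averaged genotype difference of 0.23 ± 0.11 did not pass (adjusted p = 0.339), with a 95% interval of 0.01 to 0.46 that holds the difference of C1qb and ends just under that of C1qa. Its within-group correlation with C1qb was r = 0.347 and rho = 0.405 (permutation p = 0.00284 and 0.00037, adjusted 0.00925 and 0.00129; r = 0.371 without the 2 farthest libraries).

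**Figure D2:**
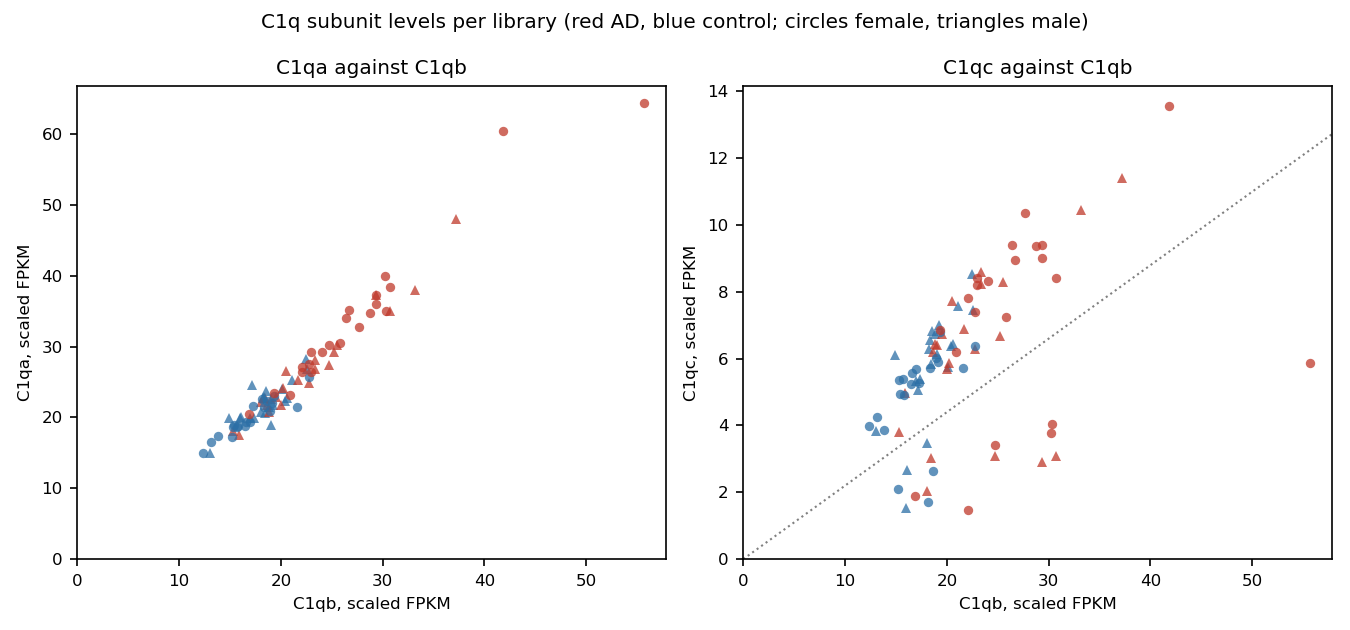
Level of C1qa (left, y axis) and C1qc (right, y axis) against C1qb (x axis), all in scaled FPKM, 1 point per mouse (red AD, blue control; circles female, triangles male). C1qa lies along a single line with C1qb, while 17 libraries of all 8 groups lie below the dotted line, drawn inside the gap of the C1qc to C1qb ratio, and 68 above it.

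C4b encodes complement C4, the protein cleaved after C1q binds. The annotation places the gene at chr17:34728380-34743882, minus strand. The table has 4 rows with its symbol, 3 of which are joined with C4a, a near-identical neighbour. It gives no positions for these rows, so whether all of them lie at that locus is unknown. How reads were shared between both genes and among the rows is uncertain. The summed level had medians of 16.5 in MWT (11.9 to 34.5), 24.9 in MAD (15.8 to 53.2), 13.6 in MWTMR (8.81 to 41.8) and 16.7 in MADMR (9.75 to 32.7). In females the medians were 17.5 in FWT (11.6 to 21.9), 21.7 in FAD (16.3 to 50.9), 11.0 in FWTMR (8.05 to 43.5) and 23.9 in FADMR (14.0 to 47.0). All pairs of groups overlapped. The averaged difference was 0.57 ± 0.13 (adjusted p = 0.00346).

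The second row of C4b was at high levels in some libraries and nearly absent in most. That row was at 5 scaled FPKM or more in 29 libraries, up to 34.3, and under 0.5 in 53. The 29 libraries came from all groups, with 4 in MWT, 6 in MAD, 2 in MWTMR, 2 in MADMR, 3 in FWT, 5 in FAD, 3 in FWTMR and 4 in FADMR. The largest row was at 6.81 to 31.6 in all 85 libraries and gave a tighter difference, 0.59 ± 0.075 (adjusted p = 1.51e-08), an alternative chosen after the data were seen. On that row AD medians were above control medians in each pair, at 12.5 in MWT and 17.8 in MAD, 11.6 in MWTMR and 15.3 in MADMR, 13.2 in FWT and 19.9 in FAD, and 8.65 in FWTMR and 19.3 in FADMR. It also passed in females on standard feed (0.60 ± 0.15, adjusted p = 0.0361) and on restricted feed (0.87 ± 0.15, adjusted p = 9.92e-05), where the summed C4b did not (0.70 ± 0.25, adjusted p = 0.232, and 0.88 ± 0.25, adjusted p = 0.0572). In males the largest row was at 0.46 ± 0.15 on standard feed and 0.43 ± 0.15 on restricted feed. Neither passed (limma adjusted p = 0.377 and 0.348).

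**Figure D3:**
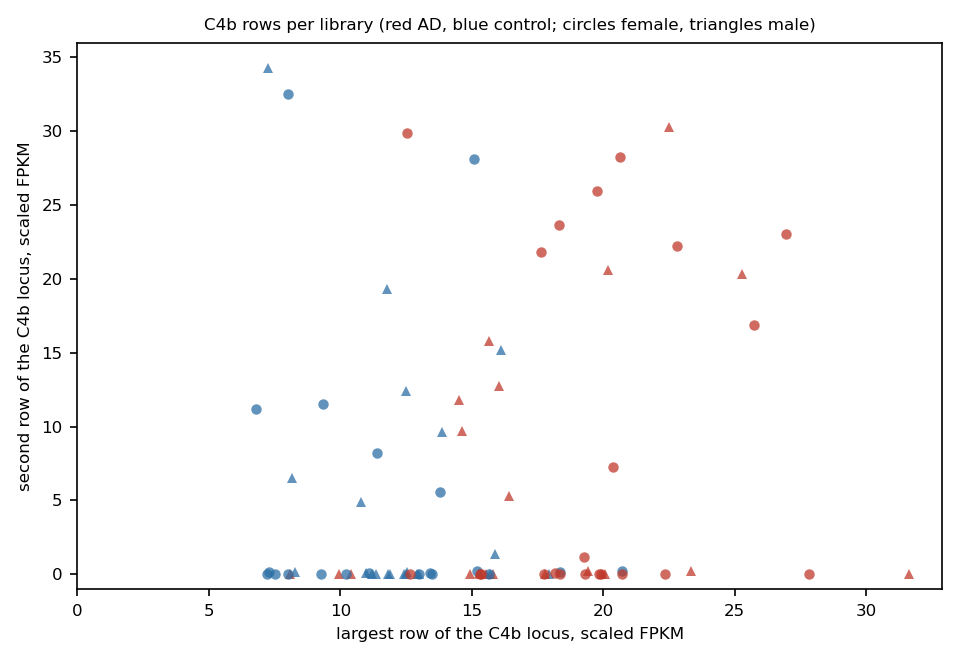
Scaled FPKM of the 2 largest rows with the C4b symbol, named rows of the C4b locus on the axes. The largest is on the x axis and the second on the y axis, with 1 point per mouse (red AD, blue control, circles female, triangles male). The second row was under 0.5 in 53 libraries and reached 34.3 in the others, in AD and control mice alike, while the largest row was present in all 85.

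C3, the central component of the cascade, was near the bottom of the range in whole hippocampus. Group medians lay between 0.297 scaled FPKM in FAD and 0.502 in FWTMR, single libraries ran from 0.0485 to 1.56, and 3 libraries reached 1 FPKM. The group means, from 0.293 in FAD to 0.490 in FADMR, differed by less than the SD of FADMR (0.414). Tested with no filter on low values, the difference was -0.03 on the log2(scaled FPKM + 1) scale (limma adjusted p = 0.897), and -0.12 with a pseudocount of 0.1 (adjusted p = 0.822). These scales understate the change of such low values.

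Itgb2, the shared CD18 chain of the leukocyte integrins, had the smallest adjusted p of the members. Control mice were at 3.11 to 8.12 scaled FPKM (median 5.17, n = 41) and AD mice at 5.27 to 19.4 (median 7.55, n = 44), a difference of 0.55 ± 0.058 (adjusted p = 1.27e-11). In FAD it was at 6.61 to 12.8 with a median of 8.50, and in FWT at 3.75 to 6.27 with a median of 4.84, so these groups did not overlap. FADMR ran from 5.27 to 19.4 (median 8.56) against 3.11 to 5.54 in FWTMR (median 4.90), and 10 of the 11 AD mice were above every control mouse of that pair. In males MAD was at 5.75 to 9.56 (median 6.75) against 3.97 to 8.12 in MWT (median 5.53), and MADMR at 5.42 to 10.5 (median 7.30) against 3.96 to 6.53 in MWTMR (median 5.57). All 11 MAD mice were above the MWT median and 8 of 11 MADMR mice were above every MWTMR mouse. In the order of group means, the 4 AD groups stood above the 4 control groups, and the step between MAD and MWT (1.35) exceeded the SD of both groups.

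Itgam, the CD11b chain that pairs with Itgb2 in complement receptor 3, rose less. Its medians were 4.999 in MWT and 5.82 in MAD, 5.71 in MWTMR and 6.00 in MADMR, 4.08 in FWT and 5.71 in FAD, and 3.69 in FWTMR and 5.52 in FADMR. Every pair of groups overlapped. In the order of group means the only step above the SD was the last, from FWT (4.39) to FWTMR (3.56). The averaged difference was 0.29 ± 0.054 (adjusted p = 0.000185). The ratio of Itgam to Itgb2 was 0.900 ± 0.182 (SD, n = 41) in control mice and 0.737 ± 0.148 (SD, n = 44) in AD mice, given as a description. Its lowest group means were in FADMR (0.635) and FAD (0.664), and its highest in MWTMR (0.986).

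The receptors for the released fragments were low. C3ar1, the C3a receptor, was at 0.0961 to 0.329 scaled FPKM in control mice (median 0.205) and at 0.158 to 0.624 in AD mice (median 0.288), and no library reached 1 FPKM. With no filter it was called, at 0.11 on the log2(scaled FPKM + 1) scale (adjusted p = 4.72e-06) and at 0.40 with a pseudocount of 0.1 (adjusted p = 2.47e-06). Above the median of the paired control group were 9 of 11 MAD, 10 of 11 MADMR, 11 of 11 FAD and 8 of 11 FADMR mice. Above every mouse of that control group were 6, 9, 6 and 5 of 11, in the same order. C5ar1, the C5a receptor, had a median of 0.134 in control mice (0.0654 to 0.352) and 0.173 in AD mice (0.0812 to 0.542). Its difference did not pass with no filter (0.07, adjusted p = 0.08) and passed with a pseudocount of 0.1 (0.29, adjusted p = 0.0424), so its call rests on the scale.

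Serping1, the inhibitor of the C1 proteases, did not differ detectably with genotype. Control mice were at 5.69 to 31.0 scaled FPKM (median 11.2) and AD mice at 4.52 to 25.6 (median 12.8), with a difference of 0.09 ± 0.10 and a 95% interval of -0.12 to 0.29 (adjusted p = 0.773). Group means ran from 11.4 in MADMR to 15.1 in FADMR, and no step between neighbours in their order exceeded the SD. The lowest library of all 85, at 4.52, was FADMR replicate 10, which held the most C1qa, C1qb and Itgb2.

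Within each sex and feed, calls were made in females only at the main setting. Between FAD and FWT, C1qa (0.62 ± 0.13, adjusted p = 0.00471), C1qb (0.53 ± 0.12, adjusted p = 0.0162) and Itgb2 (0.71 ± 0.12, adjusted p = 4.91e-05) rose, where 0.551% of all rows passed and 0.32% passed as higher. C1qb lost that call when FWT replicate 1, FWT replicate 3 or FAD replicate 8 was left out, with an adjusted p up to 0.0758. Between FADMR and FWTMR, C1qa (0.75 ± 0.13, adjusted p = 8.62e-05), C1qb (0.72 ± 0.12, adjusted p = 6.32e-05), Itgam (0.52 ± 0.11, adjusted p = 0.00221) and Itgb2 (0.81 ± 0.12, adjusted p = 1.16e-06) rose, where 1.34% of rows passed and 0.927% passed as higher. C1qc was at 0.61 ± 0.22 there (adjusted p = 0.162), and 10 of 11 FADMR mice were above the FWTMR median. In males no member passed, at 0.0659% of rows called between MAD and MWT and 0.122% between MADMR and MWTMR. With C4b summed, the male differences nearest to the threshold were those of Itgb2, 0.27 ± 0.11 on standard feed (unadjusted p = 0.0197, adjusted p = 0.591) and 0.40 ± 0.12 on restricted feed (unadjusted p = 0.000904, adjusted p = 0.19), both by limma. The largest C4b row in males was at 0.46 ± 0.15 on standard feed (limma unadjusted p = 0.00261, adjusted p = 0.377). On restricted feed it was at 0.43 ± 0.15 (limma unadjusted p = 0.00584, adjusted p = 0.348).

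Whether the genotype difference itself differed between the sexes was tested as an interaction. It was larger in females by 0.42 ± 0.12 for Itgb2 (adjusted p = 0.0483), where 0.932% of rows passed and 0.306% passed as higher. For C1qa it was larger by 0.43 ± 0.13 (adjusted p = 0.061), for C1qb by 0.35 ± 0.12 (adjusted p = 0.0917), for Itgam by 0.26 ± 0.11 (adjusted p = 0.139) and for C4b by 0.43 ± 0.25 (adjusted p = 0.298), and none of these passed. On the largest C4b row it was larger by 0.29 ± 0.15, which did not pass either (limma adjusted p = 0.236). The Itgb2 call is close to the threshold: leaving out single libraries moved its adjusted p between 0.0194 and 0.0777, and 52 of 85 such fits lost it.

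**Figure D4:**
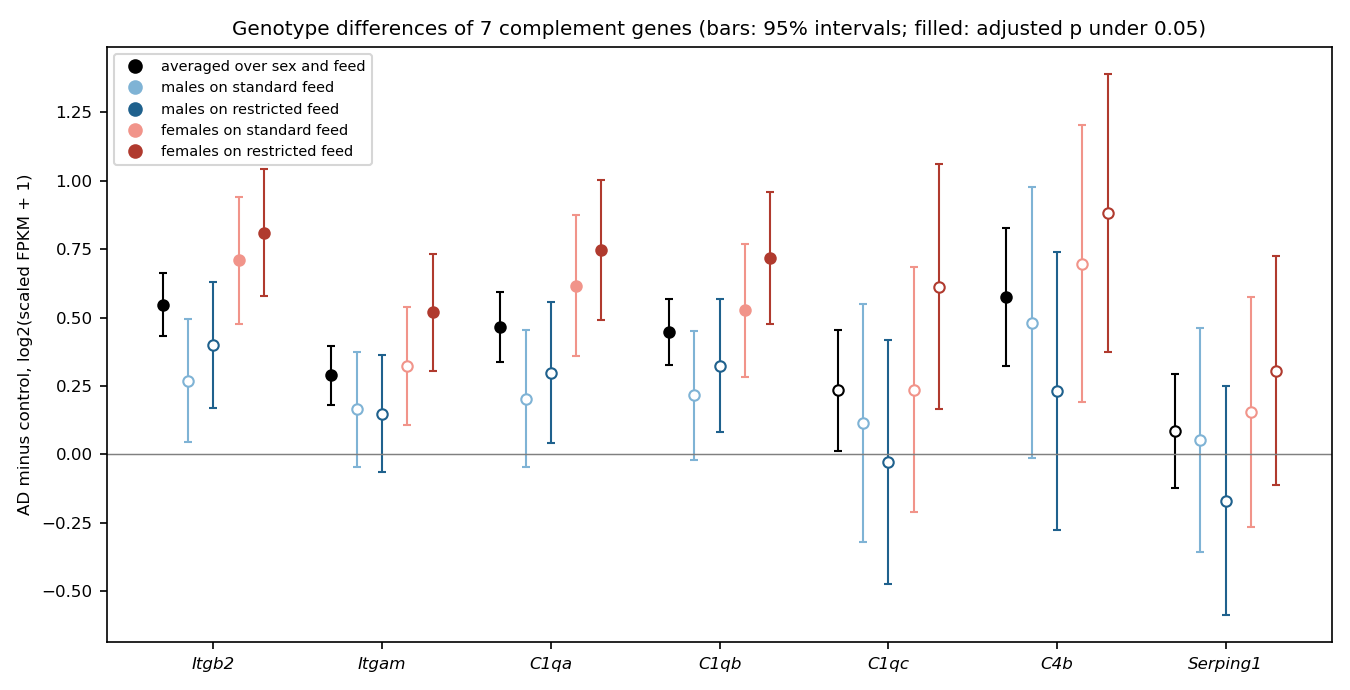
AD minus control difference on the log2(scaled FPKM + 1) scale (y axis) for the 7 tested complement genes (x axis), averaged over sex and feed (black) and within each sex and feed (colours), with 95% intervals and filled points where the adjusted p is under 0.05. Filled points stand in the average for 5 genes and in females for Itgb2, C1qa, C1qb and, on restricted feed, Itgam, and on the same feed the male and female intervals overlap for every gene.

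The feed comparisons called none of the 7 tested members, and C3, C3ar1 and C5ar1, under the filter, were not in them. On the average of both sexes and genotypes, 0 of 7 tested members passed (0.118% of rows did), and differences ran from -0.27 for C4b to 0.06 for C1qc. By unadjusted p only C4b was under 0.05 (-0.27 ± 0.13, unadjusted p = 0.0348, adjusted p = 0.64 by limma), and its largest row was at -0.25 ± 0.075 (unadjusted p = 0.0011, adjusted p = 0.192). On that row 8 of 10 MWTMR mice were below the MWT median, 8 of 11 MADMR mice below the MAD median, 7 of 10 FWTMR mice below the FWT median and 7 of 11 FADMR mice below the FAD median. All 10 FWTMR mice were above the FWT median for C5ar1 (ratio of means 1.54), and all 10 MWTMR mice were above the MWT median for Serping1 (ratio of means 1.02). These were the most extreme such counts of all members and pairs, and their share over all rows is not given. C5ar1 was near the floor there, with means of 0.108 scaled FPKM in FWT and 0.166 in FWTMR. The other pairs differed. For C5ar1 the ratio of means was 0.926 in control males, 0.898 in AD males and 0.986 in AD females. For Serping1, 2 of 10 FWTMR, 7 of 11 MADMR and 8 of 11 FADMR mice were above the median of their standard-feed group. For C1qa the 95% interval of the feed difference was -0.12 to 0.14, and for Itgb2 -0.12 to 0.11. Within groups no tested member passed either, at 0% of rows called in control males, 0.0141% in AD males, 0.0659% in control females and 0.0141% in AD females. The smallest unadjusted p there were those of Itgam in control females (-0.25 ± 0.11, unadjusted p = 0.0275), C4b in AD males (-0.53 ± 0.25, unadjusted p = 0.0349) and C1qc in AD females (0.44 ± 0.22, unadjusted p = 0.0458), with adjusted p of 0.633, 0.795 and 0.81. The test of whether the genotype difference changed with feed called no tested member and 0.00471% of all rows, and that of feed by sex called none and 0% of rows. For Itgb2 the first was 0.12 ± 0.12 (adjusted p = 0.955), and for C1qa 0.11 ± 0.13 (adjusted p = 0.959).

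Females and males differed at 51% of all rows (24.4% higher in females and 26.5% lower), and of the members only Itgam passed. It was lower in females by the averaged difference of -0.21 ± 0.054 (adjusted p = 0.000737), with a median of 3.97 scaled FPKM in 20 control females and 5.39 in 21 control males, and 5.59 in 22 AD females and 5.83 in 22 AD males. With FPKM as deposited, or with equal totals, 3 members passed in this comparison (Itgam, lower, and C1qa and C1qb, higher), and the share of all called rows that were higher in females moved from 48.0% to 68.8% and 67.2%. The sex difference of C1qa was 0.09 ± 0.064 (adjusted p = 0.244) and that of Itgb2 0.01 ± 0.058 (adjusted p = 0.911). The labels do not say whether the sexes were prepared together.

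Of the rest of the pathway 1 gene passed with genotype, where 1.72% of all rows did. Of 55 other listed complement symbols 23 had a row past the filter, none passed as higher in AD mice, and only Sez6 was lower (-0.20 ± 0.056, adjusted p = 0.0425), a neuronal membrane protein of the family that inhibits complement. The median of the 23 was 0.07. Among starters of the classical and lectin pathways 4 of 14 were tested and 0 called, and Masp1, the lectin pathway protease with the highest mean of that list (9.32 FPKM), was at 0.12 ± 0.051 (adjusted p = 0.273). Of the genes of the C3 convertase and the alternative pathway 1 of 5 was tested, Cfb (factor B, 1.36 FPKM), at 0.02 ± 0.036 (adjusted p = 0.826). Of the terminal pathway 1 of 7 was tested, Hc (which encodes C5, 0.727 FPKM), at 0.07 ± 0.085 (adjusted p = 0.785), and C6 and C9 were listed at 0 in 75 and 79 of the 85 libraries. Of 7 soluble regulators 4 were tested and 0 called, with Clu (clusterin, 367 FPKM) at 0.12 ± 0.059 (adjusted p = 0.34). Of 13 membrane regulators 9 were tested and 1 called, with Sez6l (161.6 FPKM) at 0.26 ± 0.14 (adjusted p = 0.418). Of 9 further receptors and binding proteins 4 were tested and 0 called, and the neuronal pentraxin Nptx1 (142.3 FPKM), a binding partner of C1q, was at -0.08 ± 0.24 (adjusted p = 0.924). Feed and its interactions, and genotype by sex, called none of the 23.

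Between the sexes 10 of the 23 passed, 3 higher in females and 7 lower. That share is below the 51% of all rows called, so the genes are listed as a description. Higher were Masp2 (0.20 ± 0.052) and the membrane inhibitors of the terminal pathway Cd59a (0.16 ± 0.069) and Cd59b (0.32 ± 0.063). Lower were Nptx1 (-1.07 ± 0.24), Csmd3 (-0.41 ± 0.11), Susd4 (-0.20 ± 0.070), Masp1 (-0.17 ± 0.051), Cfb (-0.14 ± 0.036), the C3 convertase inhibitor Cd55 (-0.13 ± 0.042) and C1qbp (-0.09 ± 0.038), with adjusted p from 2.43e-05 for Cd59b to 0.0484 for C1qbp by limma. With FPKM as deposited and with equal totals the signs were the same, but Masp1, Cd55, Susd4 and C1qbp lost their calls, with C1qbp at -0.0077 and -0.0116. Under each of these scalings 8 of the 23 passed, 5 higher and 3 lower.

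Microglial markers moved with the same contrast. Averaged over sex and feed, 8 of 10 tested markers of plaque-associated microglia rose in AD mice and 0 fell (median 0.70). Their summed level was 149.7 to 526.1 scaled FPKM in AD mice and 115.6 to 226.5 in control mice. Most of that sum was Cd9, with a mean of 156.0 over all mice, ahead of Trem2 (24.6) and Tyrobp (15.4). Of the homeostatic microglia markers 4 of 9 rose and 0 fell (median 0.28). Their sums were 78.6 to 348.1 in AD mice and 96.4 to 218.8 in control mice. With the mean of the homeostatic markers as a covariate, Itgb2 (0.42), C1qa (0.32) and C1qb (0.31) kept their calls, whereas C4b (0.50, adjusted p = 0.0565) and Itgam (0.15, adjusted p = 0.124) did not. Of the astrocyte markers 2 of 6 rose, and 0 of 9 choroid plexus, 0 of 7 meningeal and 0 of 6 neuronal markers passed. Markers of other leukocytes that carry Itgam and Itgb2 were near 0: the summed neutrophil markers were at 0.00535 to 0.508 scaled FPKM, with Ly6g at 0 in 75 of 85 libraries, and the summed lymphocyte markers at 0.268 to 1.76. The summed border macrophage markers were at 0.509 to 3.77. The part of cell composition in the member differences was not tested beyond these fits.

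Within groups, with each library's value taken relative to its group mean, some members varied with microglial and astrocyte markers and others with markers of tissue outside the hippocampus. C1qb and the plaque-associated list correlated at r = 0.788 and rho = 0.738 over 85 libraries (permutation p = 1e-05 for both, the smallest possible; adjusted p = 5.94e-05 for r), at 0.864 in the AD mice and 0.539 in the control mice. Itgb2 and that list were at r = 0.648 and rho = 0.548 (p and adjusted p of r the same as for C1qb), at 0.84 in AD and 0.157 in control mice, and C3ar1 was at r = 0.69 and rho = 0.602. Without the 2 libraries farthest from the median these 3 were at 0.71, 0.513 and 0.587. C1qa, C1qb, Itgam and Itgb2 also varied with the homeostatic list, at r = 0.523, 0.517, 0.572 and 0.509 (permutation adjusted p of 0.000101 or less). Itgam was at 0.476 with the plaque-associated list. With the astrocyte list these genes were at r = 0.402, 0.433, 0.382 and 0.365 (permutation adjusted p from 0.000321 to 0.0069). C1qc, C4b, C3, C5ar1 and Serping1 did not pass by r with the homeostatic or the astrocyte list. C1qa and Itgb2 correlated at r = 0.755 and rho = 0.679, and Itgam and Itgb2 at r = 0.603 and rho = 0.608 (permutation p = 1e-05 each, adjusted 5.94e-05 for r; 0.689 and 0.539 without the 2 farthest libraries). For C1qc and the plaque-associated list r was 0.22 (permutation p = 0.0377, adjusted 0.0827) and rho was 0.374 (adjusted 0.00258).

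Serping1 varied instead with the mean of meningeal and fibroblast markers (r = 0.745, rho = 0.672) and of choroid plexus markers (r = 0.569, rho = 0.575), each with permutation p = 1e-05 and an adjusted p of 5.94e-05 for r over 85 libraries. Without the 2 farthest libraries these were at 0.661 and 0.567, and with the meningeal list r was 0.68 in AD mice and 0.818 in control mice. C3 varied with choroid plexus markers (r = 0.493, rho = 0.523, permutation p = 3e-05 and 2e-05, adjusted 0.000144 and 0.000101; 0.538 without the 2 farthest). No marker of either list passed for genotype, and both lists varied widely between libraries. The choroid plexus sum ran from 56.5 to 3692 scaled FPKM and the meningeal sum from 14.95 to 254.0. Enpp2 had the highest mean in the choroid plexus sum (547.0, from 52.4 to 1977), followed by Ttr (216.6, from 0.534 to 1424). C1qa and C1qb went slightly the other way against the meningeal list (r = -0.27 and -0.284, permutation p = 0.0132 and 0.0126, adjusted 0.0332 and 0.0326), which weakened to -0.138 and -0.123 without the 2 farthest libraries, so that relation rests on those samples. With choroid plexus and meningeal means as covariates the same number of members, 5, passed for genotype.

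**Figure D5:**
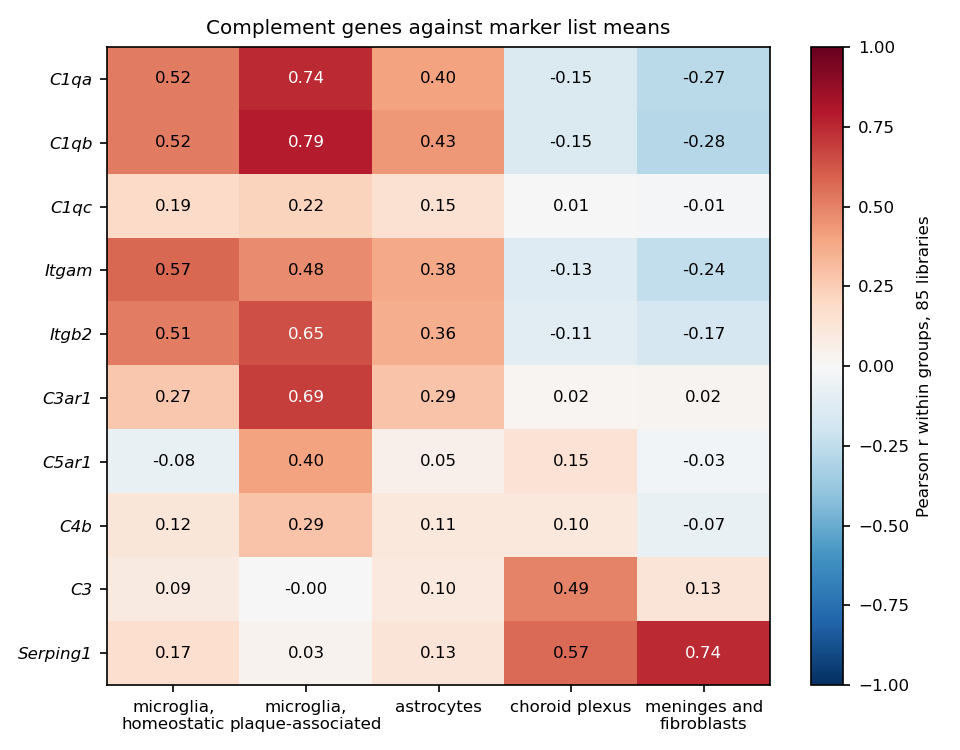
Pearson r within groups over 85 libraries (colour and printed value) between the log2 level of each of the 10 complement genes (rows) and the mean log2 level of 5 marker lists (columns). C1qa, C1qb, Itgb2 and C3ar1 have their highest r with plaque-associated microglia markers (0.65 to 0.79), and Serping1 with meningeal markers (0.745).

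The genes most like 5 members by Pearson r of group-centred log2 values over 85 libraries, among 12552 rows with a single symbol, were as follows. For C1qa they were C1qb (0.957) and the lysosomal proteases Ctsd (0.89) and Ctsz (0.861). For Itgb2 they included C1qb (0.759) and C1qa (0.755). For Serping1 they were Itih2 (0.803), Fmod (0.793) and Bgn (0.789), of which Fmod is in the meningeal list and Bgn encodes the matrix proteoglycan biglycan. For C3 they were Dnali1 (0.779), an axonemal dynein chain, Six3os1 (0.763) and Nek5 (0.755). For C4b the likeness was weaker, with Gpr84 (0.513), Hcar2 (0.497) and Ncf4 (0.455), and its largest row gave other genes, Pdlim4 (0.526), Adck4 (0.502) and Parp3 (0.484).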

How the data were processed

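Hippocampal total RNA of 85 mice was sequenced, 1 library per mouse, with a phenol-chloroform extraction and BGI-500 libraries per the labels' protocols. Trimmomatic 0.38, StringTie 1.3.4d and HISAT2 were used with build GRCm38.p6, per the submitters' processing notes, which give no order or role. The deposited table holds FPKM made by the authors for assembled loci. Of its 56090 rows, 14100 have no symbol. Rows with the same symbol field were summed, as were the rows that hold the C4b symbol. Values were scaled by median-of-ratios factors, and the 21247 loci that reached 1 FPKM in 10 or more libraries were tested on log2(scaled FPKM + 1) with limma 3.58.1 in R 4.3.3 (1 mean per group, 77 residual degrees of freedom, mean-variance trend, robust prior, two-sided, Benjamini-Hochberg over all loci, threshold 0.05, 14 comparisons). Differences are on that scale, which understates the change of low genes, and p-values measure the spread between mice. Errors are SE for differences and SD for levels. Correlations used group-centred log2 values and 100000 permutations within groups, adjusted over 101. Python 3.11.15 with scipy 1.17.1 was used besides. The test was checked on simulated data. Coordinates are GENCODE vM21 (GRCm38) and promoters RefSeq GRCm38.p6. No counts, and so no depth, are in the table.

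The members and lists were chosen with earlier results of these data known. Named genes are the 10 members, other complement genes called or with the highest mean of their list, and the 3 genes most like C1qa, C4b, C3, Itgb2 and Serping1, of which 1 is not reported here. Alternatives were FPKM as deposited, equal totals, pseudocount 0.1, a minimum of 5 FPKM or none, no trend, array weights, a block for replicate number, tissue or microglia covariates, only the groups compared, single-symbol rows and leaving out each of 85 libraries. The lists of endothelium, oligodendrocyte and red blood cell markers called 0 of 4, 0 of 4 and 0 of 1 with genotype.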

Additional observations from a re-analysis of the deposited data

Results flagged for a closer look

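A value was set apart where, in a group of 10 mice, the gap between the extreme mouse and the next was more than 0.466 of the group's range, the 95% limit of Dixon's test. This was done for the 10 genes in MWTMR, FWT and FWTMR, 30 tests in all, of which chance flags about 5 percent, and 5 passed. C1qa in MWTMR replicate 11 was low, at 14.97 scaled FPKM against 19.9 in the next mouse. C3 was high in MWTMR replicate 6 (1.27, next 0.554) and in FWT replicate 4 (1.067, next 0.460), all at low values. C4b in MWTMR replicate 7 was at 41.8, next 18.7, and this is a library in which the second C4b row is present. Serping1 in FWTMR replicate 5 was at 31.0, next 14.8.

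The genotype difference of Itgb2 differed between the sexes, with a larger rise in females by 0.42 on the log2 scale (limma adjusted p = 0.0483). The call was lost in 52 of 85 fits that left out 1 library (adjusted p 0.0194 to 0.0777) and under other alternatives, up to an adjusted p of 0.289 with the homeostatic microglia covariate. Group means were 8.97 in 22 AD females and 4.76 in 20 control females, and 7.39 in 22 AD males and 5.65 in 21 control males (scaled FPKM).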

How the results depend on the processing

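The averaged genotype difference kept 5 called members under every alternative run except the homeostatic microglia covariate (3), no filter (6, with C3ar1) and no filter with pseudocount 0.1 (7), the last added after seeing the data, and under all 85 leave-one-out fits. Itgb2, C1qa and C1qb were called in it throughout.

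In females on standard feed 3 members were called, but 5 with array weights, 1 with only the groups compared and 1 with the microglia covariate, and in females on restricted feed 4, but 1 with the microglia covariate. In males on restricted feed array weights called 1 (Itgb2). Between the sexes 1 member was called, but 2 with no filter (2 also with pseudocount 0.1) and 3 each with FPKM as deposited, equal totals and the microglia covariate. The genotype by sex call of Itgb2 was lost (0 members) with pseudocount 0.1, no filter, no filter with pseudocount 0.1, a filter at 5 FPKM, FPKM as deposited, equal totals, the replicate block, the microglia covariate and single-symbol rows; array weights called 3 and the choroid plexus and meninges covariates 2, and leaving out single libraries gave 0 to 3. The cause was not tested.

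The values that changed sign were all uncalled. C1qc in males on restricted feed was at 0.0122 with FPKM as deposited, 0.0156 with equal totals and 0.0104 with the replicate block, and from -0.1263 to 0.0769 leaving out libraries. On standard feed in males, C1qc ran from -0.0247 to 0.1979 and Serping1 from -0.0303 to 0.1693 leaving out libraries, and Serping1 was at -0.0299 with the tissue covariates. The averaged feed differences ran, leaving out libraries, from -0.0126 to 0.0335 for C1qa, -0.0355 to 0.0067 for C1qb, -0.0342 to 0.0083 for Itgb2 and -0.0135 to 0.0614 for Serping1. With FPKM as deposited and equal totals C1qb was at 0.0071 and 0.0108, and Itgb2 at 0.0088 and 0.0123.

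Replicate numbers did not pair the libraries: the 281 same-numbered pairs between groups correlated at -0.39 to 0.394 with a median of -0.006, and 7 of 85 libraries correlated best with their own number. With the replicate block 5 members stayed called in the averaged genotype difference and the genotype by sex count went from 1 to 0; over all rows, the block took the genotype by sex count from 198 to 1 and the feed count from 25 to 15.

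Over all rows the averaged genotype count of 366 became 189 with a filter at 5 FPKM, 1098 with array weights (also 1364 against 117 in females on standard feed, 998 against 26 in males on restricted feed and 2559 against 198 for genotype by sex) and 222 with the microglia covariate; in females on standard feed 117 became 609 without FAD replicate 5 and 61 without FAD replicate 8, and in females on restricted feed 285 became 189 without FWTMR replicate 6. With FPKM alone, depth and counting error are unknown.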
